A study of Mus musculus with 56 samples.

Results

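The 10 genes described here are feedback and output genes of the RAS-ERK pathway, taken by symbol from the 24424 genes of a mouse RNA-seq table. They are the MAP kinase phosphatase genes Dusp4, Dusp5 and Dusp6, the Sprouty genes Spry1, Spry2 and Spry4, the Spred genes Spred1 and Spred2, and the ETS factor genes Etv4 and Etv5. All 10 were found in the table. Of the 10, 7 passed the filter for testing, a mean of at least 4 on the table's log2 scale. Dusp4, Spry4 and Etv4 lay under it and are given apart.

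The libraries came from sorted bone marrow progenitors of C57BL/6 mice of 2 genotypes. T2F3 mice are Tet2-/-Flt3ITD, which means that they lack the 5-methylcytosine dioxygenase Tet2 and carry the internal tandem duplication of the receptor tyrosine kinase Flt3, and WT mice carry neither allele. Multipotent progenitors (MPP) were sorted as lineage-negative, Sca+, cKit+, CD48+ and CD150- cells, and granulocyte-macrophage progenitors (GMP) as lineage-negative, Sca-, cKit+, CD34+ and CD16/32+ cells. There were 3 T2F3 MPP and 4 WT MPP libraries, and 3 T2F3 GMP and 5 WT GMP libraries, 15 in all. Age and sex of the mice, whether a library is 1 animal or a pool, and how the Tet2 alleles were deleted are not given in the sources used here, so p-values measure the spread between libraries, which may be partly technical. T2F3 mice differ from WT mice at both loci, so the parts of Tet2 and of Flt3 in any difference cannot be told apart.

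ERK is the last kinase of a cascade that runs from receptor tyrosine kinases such as Flt3 and Kit through RAS, RAF and MEK. Active ERK raises the transcription of genes whose products shut the pathway off again: phosphatases that remove the activating phosphates of ERK, and Sprouty and Spred proteins that act between the receptor and RAF. Transcripts of these genes, and of the ETS factors Etv4 and Etv5, are widely read as a record of recent ERK signalling, and FLT3-ITD is known as a receptor that signals without ligand.

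The start regions of the genes on which the results turn are shown because Dusp5 moved opposite to the other members that passed the test. Windows at RefSeq start sites (GRCm38.p6) were used for 7 of the 10 members, 8 windows in all. Each runs from 250 bases before to 50 bases after the start. No window was used for Dusp4, Spry4 and Etv4. The selection left out a whole chromosome, which can account for only a part of these genes. Why each of them lacks a window was not examined, and the lack does not mean that RefSeq has no start for them. Each is printed 5′ to 3′ on the gene's strand, with motif matches in capitals. Dusp5 lies at chr19:53528895-53529194 on the plus strand, Dusp6 at chr10:99262981-99263280 on the plus strand, and Spry2 at chr14:105896770-105897069 on the minus strand.
Dusp5: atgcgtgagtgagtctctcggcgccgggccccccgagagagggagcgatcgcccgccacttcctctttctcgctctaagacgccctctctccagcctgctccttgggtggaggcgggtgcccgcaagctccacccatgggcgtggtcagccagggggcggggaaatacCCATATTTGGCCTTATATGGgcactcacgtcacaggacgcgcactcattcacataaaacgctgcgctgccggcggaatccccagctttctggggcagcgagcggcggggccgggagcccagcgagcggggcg
Dusp6: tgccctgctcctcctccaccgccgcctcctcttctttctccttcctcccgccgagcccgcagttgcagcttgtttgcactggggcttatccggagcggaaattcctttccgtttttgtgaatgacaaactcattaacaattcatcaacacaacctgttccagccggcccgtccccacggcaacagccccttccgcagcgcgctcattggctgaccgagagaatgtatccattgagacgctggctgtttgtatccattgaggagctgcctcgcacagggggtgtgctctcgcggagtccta
Spry2: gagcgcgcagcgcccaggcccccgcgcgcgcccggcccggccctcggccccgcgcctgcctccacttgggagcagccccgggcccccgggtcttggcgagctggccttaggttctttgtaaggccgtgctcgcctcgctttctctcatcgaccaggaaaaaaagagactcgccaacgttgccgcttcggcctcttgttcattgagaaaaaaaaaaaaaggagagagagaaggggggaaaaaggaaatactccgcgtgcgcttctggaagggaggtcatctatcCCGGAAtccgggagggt

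The capitals in Dusp5 are 2 adjoining CArG boxes, the binding motif of serum response factor, CCATATTTGG at 82 bases and CCTTATATGG at 72 bases before the start. CArG boxes were held by 1.63% of the 32851 mouse windows of this length and by 1.26% of the 12302 windows of tested genes. In Spry2 the capitals mark the ETS motif CCGGAA at position 33 after the start. It was held by 14.9% of all windows and 27.5% of those of tested genes. Also searched on both strands were the CRE TGACGTCA, the AP-1 motif TGANTCA, the STAT motif TTCNNNGAA and the GATA motif AGATAA, held by 1.79%, 7.81%, 8.30% and 11.2% of all windows. The window of Dusp6, and those of Spry1, Spred1, Spred2 and Etv5, held no match to any of the 6 motifs in the forms searched. Shorter or looser forms of a site were not counted. The GGAA within CCGGAA, for example, also stands in the Dusp6 window. These matches describe letters in a window and say nothing of binding.

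Most tested feedback genes were lower in T2F3 than in WT in both populations, while Dusp5 was higher and Spry1 did not pass the test in either. In MPP, 6 of the 7 tested members passed the threshold of an adjusted p of 0.05 (limma, Benjamini-Hochberg over 12133 genes), 1 higher and 5 lower. In GMP, again 6 of 7 passed, 1 higher and 5 lower. The higher gene was Dusp5 each time, and the lower genes were Dusp6, Spry2, Spred1, Spred2 and Etv5 each time. The background differed between the populations. Among all tested genes 40.3% were called in MPP, 20.7% higher and 19.6% lower, and 15.3% were called in GMP, 9.25% higher and 6.04% lower. The median difference of the 7 members was -0.78 in MPP and -0.58 in GMP, against -0.02 over all tested genes in each population. Centring each library on its median moved the higher share of all calls in MPP to 40.2%, against 51.3% as deposited, and left the members' counts at 1 higher and 5 lower in both populations.

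**Figure D1:**
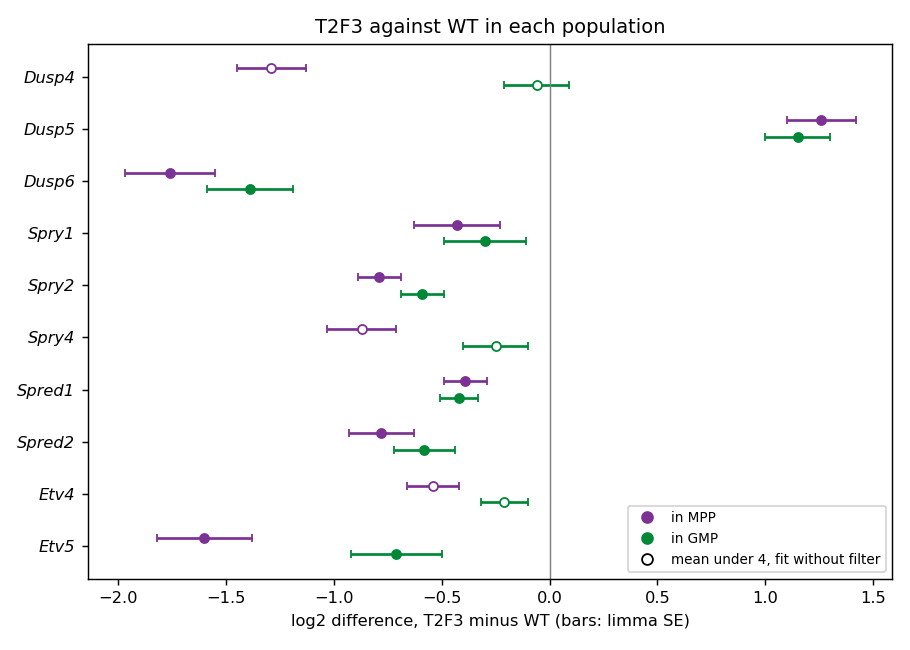
Log2 difference of T2F3 minus WT for each of the 10 genes, in MPP and in GMP, with bars of 1 limma SE; open points are the 3 genes under the filter, from the fit without it. Dusp5 lies to the right of 0 in both populations, at 1.26 in MPP and 1.15 in GMP, and the points of the other genes lie to the left.

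Measured by library, the separation was complete in MPP. The T2F3 MPP libraries lay wholly apart from the WT MPP libraries for all 7 tested members, 1 higher and 6 lower, where 54.1% of all tested genes did so, 28.1% higher and 26.0% lower. In GMP, 6 of the 7 lay apart, 1 higher and 5 lower, where 17.0% of all tested genes did so, 9.52% higher and 7.49% lower.

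**Figure D2:**
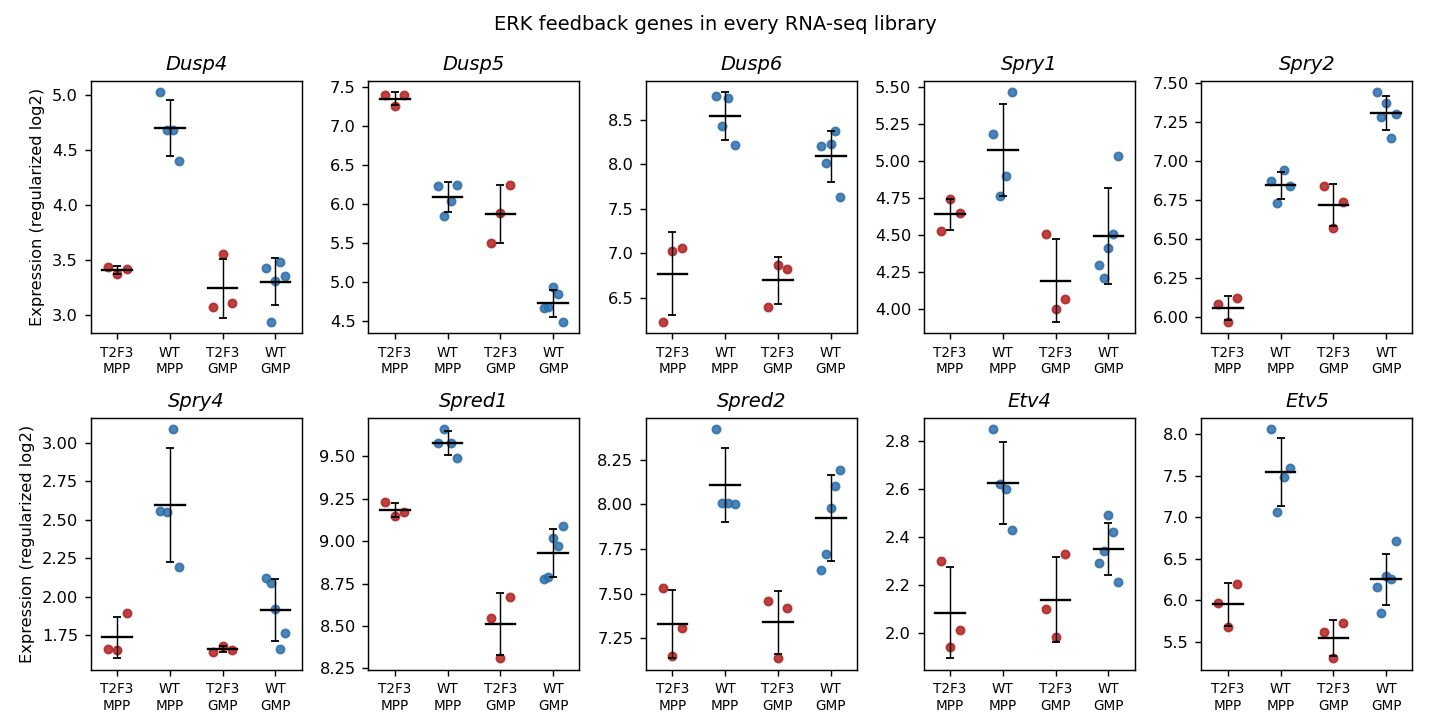
Regularized log2 value of each of the 10 genes in each of the 15 libraries, by group, with a line at each group mean. Dusp6 in the T2F3 MPP libraries lies between 6.23 and 7.06, under the lowest WT MPP library at 8.21.

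The phosphatase genes Dusp5 and Dusp6 both encode enzymes that act on ERK with little activity toward the stress-activated MAP kinases. The Dusp6 protein works in the cytoplasm and the Dusp5 protein in the nucleus. Dusp6 had the largest decrease among the tested members in both populations. In T2F3 MPP it read 6.23, 7.02 and 7.06 on the regularized log2 scale, against 8.77, 8.43, 8.74 and 8.21 in WT MPP. All T2F3 libraries were lower than all WT libraries. The difference was -1.76 ± 0.21 (limma SE, adjusted p = 1.24e-05), a level 3.40-fold lower in T2F3. In T2F3 GMP the Dusp6 values were 6.39, 6.87 and 6.82, against 8.20, 8.01, 8.23, 8.37 and 7.63 in WT GMP. The groups again did not overlap, and Dusp6 was lower by 2.62-fold (-1.39 ± 0.20, limma adjusted p = 0.000139). In the order of group means WT MPP came first, then WT GMP, T2F3 MPP and T2F3 GMP. Within each genotype the libraries of the neighbouring populations overlapped, and the gap lay between the genotypes.

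Dusp5 went the other way. It read 7.40, 7.26 and 7.39 in T2F3 MPP, against 6.23, 5.84, 6.04 and 6.24 in WT MPP. Every T2F3 library was higher, by 1.26 ± 0.16 on average (limma adjusted p = 2.37e-05), or 2.40-fold. In T2F3 GMP it read 5.50, 5.88 and 6.24, against 4.67, 4.68, 4.93, 4.84 and 4.49 in WT GMP, a difference of 1.15 ± 0.15 (limma adjusted p = 6.07e-05), or 2.22-fold. The highest group was T2F3 MPP and the lowest WT GMP. WT MPP and T2F3 GMP lay between them and overlapped.

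Taken within a library, the Dusp5 value minus the Dusp6 value was 1.17, 0.23 and 0.33 in T2F3 MPP, against -2.54, -2.59, -2.70 and -1.97 in WT MPP. It was -0.89, -0.99 and -0.58 in T2F3 GMP, against -3.53, -3.33, -3.29, -3.52 and -3.13 in WT GMP. The 4 groups did not overlap on this measure, with T2F3 above WT in each population. Since the values are not per length, its zero point has no meaning and its shifts between groups alone can be read. It is a description without a test, because the pair was picked for its opposite directions.

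**Figure D3:**
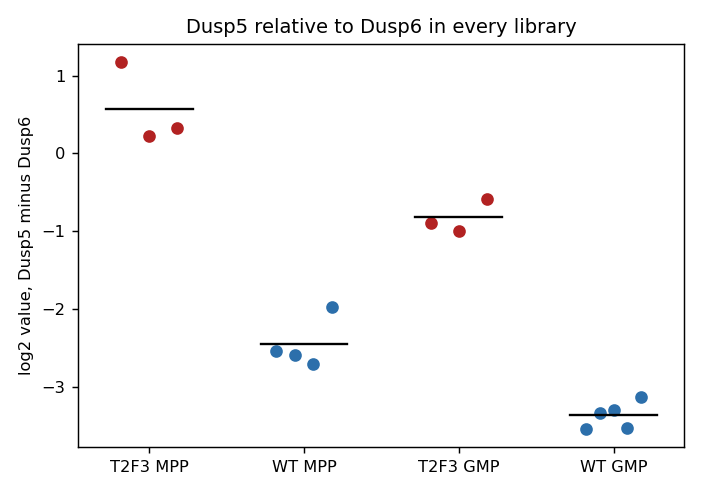
Dusp5 value minus Dusp6 value within each library, in log2 units, by group, with a line at each group mean. The 3 T2F3 MPP libraries lie between 0.23 and 1.17 and the 4 WT MPP libraries between -2.70 and -1.97.

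Dusp4 encodes an inducible nuclear phosphatase of ERK and of the stress-activated kinases. Its mean over the 15 libraries was 3.68, under the filter, and regularization shrinks differences of such low genes. It read 3.44, 3.37 and 3.42 in T2F3 MPP, against 5.02, 4.68, 4.68 and 4.40 in WT MPP. The MPP groups lay apart, and in the fit without the filter (19289 genes) the difference was -1.29 ± 0.16 (limma adjusted p = 9.6e-06). In GMP the groups overlapped, at 3.07, 3.55 and 3.11 in T2F3 and 3.43, 2.94, 3.31, 3.48 and 3.35 in WT, with a difference of -0.06 ± 0.15 (limma adjusted p = 0.907). WT MPP was the group that stood out, and the other 3 groups overlapped in their order.

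The Sprouty genes encode membrane-associated adaptors that hold back receptor tyrosine kinase signalling upstream of ERK. Spry2 read 6.08, 5.97 and 6.12 in T2F3 MPP, against 6.87, 6.73, 6.94 and 6.84 in WT MPP. Its libraries spread by no more than 0.21 within either group, and it was lower in T2F3 by 1.73-fold (-0.79 ± 0.10, limma adjusted p = 2.38e-05). In T2F3 GMP it read 6.84, 6.57 and 6.74, against 7.44, 7.28, 7.37, 7.15 and 7.30 in WT GMP, again without overlap (-0.59 ± 0.10, limma adjusted p = 0.000435), 1.51-fold lower. Spry2 was the single tested member whose highest group was WT GMP, and its T2F3 GMP libraries overlapped those of WT MPP.

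Spry1 did not pass the threshold in either population. It read 4.53, 4.74 and 4.65 in T2F3 MPP, against 5.18, 4.76, 4.90 and 5.46 in WT MPP. The libraries did not overlap, by a gap of only 0.03 between T2F3 MPP 2 and WT MPP 3, and the difference was -0.43 ± 0.20 with a 95% interval of -0.86 to -0.01 (limma adjusted p = 0.0925). In GMP the values were 4.51, 4.0 and 4.07 in T2F3 and 4.30, 4.21, 4.41, 4.51 and 5.03 in WT, which overlapped (-0.30, 95% interval -0.71 to 0.11, limma adjusted p = 0.316). Spry4, with a mean of 2.01, lay under the filter. Its values were 1.66, 1.65 and 1.89 in T2F3 MPP, against 2.56, 2.55, 3.09 and 2.19 in WT MPP, without overlap (-0.87 ± 0.16, limma adjusted p = 0.000539 without the filter). In GMP it ranged from 1.64 to 1.68 in T2F3 and from 1.66 to 2.12 in WT, and the difference of -0.25 ± 0.15 did not pass (adjusted p = 0.348, the same fit).

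Spred proteins inhibit the pathway at RAS, and Spred1 is known to bring neurofibromin, a RAS GTPase-activating protein, to the membrane. Spred2 read 7.53, 7.15 and 7.31 in T2F3 MPP, against 8.42, 8.01, 8.01 and 8.00 in WT MPP, a 1.72-fold lower level in T2F3 (-0.78 ± 0.15, limma adjusted p = 0.00102). In T2F3 GMP it read 7.46, 7.14 and 7.42, against 7.63, 7.72, 7.98, 8.10 and 8.19 in WT GMP. These did not overlap (-0.58 ± 0.14, limma adjusted p = 0.0108), although the difference was -0.48 without T2F3 GMP 2 and no longer passed (adjusted p = 0.0709). For this gene the genotypes were apart and the populations of each genotype overlapped, as for Dusp6.

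Spred1 had small and tight differences. It read 9.23, 9.15 and 9.17 in T2F3 MPP, against 9.58, 9.66, 9.58 and 9.49 in WT MPP (-0.39 ± 0.10, limma adjusted p = 0.00587), 1.31-fold lower. In T2F3 GMP it read 8.55, 8.31 and 8.67, against 8.78, 8.79, 9.02, 8.97 and 9.09 in WT GMP (-0.42 ± 0.09, limma adjusted p = 0.00527), 1.34-fold lower. The libraries did not overlap between any neighbouring pair of groups, with WT MPP highest, followed by T2F3 MPP, then WT GMP, and T2F3 GMP lowest, and no other member had all 4 groups apart. With the mean of the ribosomal protein genes as a covariate, the MPP difference was -0.19 and did not pass (limma adjusted p = 0.0892).

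Etv5 and Etv4 encode ETS transcription factors of the PEA3 subfamily, which are induced by fibroblast growth factor and ERK signalling. Etv5 read 5.97, 5.68 and 6.20 in T2F3 MPP, against 8.06, 7.06, 7.48 and 7.59 in WT MPP. All T2F3 libraries were lower, by 3.02-fold on average (-1.60 ± 0.22, limma adjusted p = 4.33e-05). In T2F3 GMP it read 5.62, 5.30 and 5.72, against 6.16, 5.84, 6.29, 6.25 and 6.71 in WT GMP (-0.71 ± 0.21, limma adjusted p = 0.0303), 1.63-fold lower. The GMP libraries did not overlap, but that call was lost without some single libraries. Leaving out T2F3 GMP 1, T2F3 GMP 2, WT GMP 3, WT GMP 4 or WT GMP 5 gave -0.74 to -0.58 with adjusted p of 0.0525 to 0.147.

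Etv4, with a mean of 2.33, lay under the filter. It read 2.30, 1.94 and 2.01 in T2F3 MPP, against 2.85, 2.62, 2.60 and 2.43 in WT MPP, without overlap. The fit without the filter gave -0.54 ± 0.12 in MPP (limma adjusted p = 0.00296) and -0.21 ± 0.11 in GMP (adjusted p = 0.292), where the libraries overlapped, at 1.98 to 2.33 in T2F3 and 2.21 to 2.49 in WT. Thus all 3 genes under the filter were lower in MPP in that fit, which called 14.2% of its genes lower. None of the 3 passed in GMP in that fit, which called 3.41% lower.

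The effect of genotype in GMP minus that in MPP was also tested for each gene. Of the 7 tested members 0 passed (limma, adjusted), where 2.26% of all tested genes did, and the members' median was 0.19 against -0.01 over all tested genes. At an unadjusted p under 0.05 the member count was 1, Etv5, where 19.2% of all tested genes reached it. The Etv5 effects differed by 0.89 ± 0.30 (95% interval 0.25 to 1.53, limma adjusted p = 0.128). For Dusp6 the difference was 0.37 with an interval of -0.25 to 1.00, for Dusp5 -0.11 with -0.59 to 0.36, and for Spry2 0.20 with -0.10 to 0.50. Among the genes under the filter, the Dusp4 effects differed by 1.23 ± 0.22 (limma adjusted p = 0.0051 without the filter, in a fit that called 2.26% of genes), since Dusp4 was lower in T2F3 in MPP and stood at -0.06 in GMP. For Spry4 the difference of effects was 0.61 (adjusted p = 0.164) and for Etv4 0.32 (adjusted p = 0.348) in the same limma fit.

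From MPP to GMP the feedback genes did not move as 1 group. In WT, 5 of the 7 tested members passed, 1 higher in GMP and 4 lower, where 48.6% of all tested genes passed, 25.4% higher and 23.2% lower. In T2F3, 3 of 7 passed, 1 higher and 2 lower, where 22.2% of all tested genes passed, 10.5% higher and 11.7% lower. The median difference was -0.58 in WT and -0.41 in T2F3, against 0.03 and 0.01 over all tested genes. The shares of all genes shift with scaling, since centring each library on its median gave 42.2% of the WT calls as higher, against 52.2% as deposited. These differences share libraries with the genotype comparisons above.

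Dusp5 was lower in GMP than in MPP in both genotypes, at -1.48 ± 0.17 in T2F3 (limma adjusted p = 8.86e-06) and at -1.36 ± 0.14 in WT (limma adjusted p = 9.09e-07). Spred1 was lower in GMP as well, at -0.68 ± 0.10 in T2F3 and -0.65 ± 0.09 in WT (limma adjusted p = 0.000133 and 1.19e-05). Spry2 was higher in GMP, by 0.66 ± 0.11 in T2F3 and 0.46 ± 0.09 in WT (limma adjusted p = 0.000251 and 0.000464). The libraries of the populations lay apart for these 3 genes in each genotype. Among the tested members 4 lay apart in T2F3 and 4 in WT, where 33.5% and 43.0% of all tested genes did so.

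Etv5 had a difference of -0.41 ± 0.23 in T2F3, which did not pass (limma adjusted p = 0.25), and was lower in WT GMP than in WT MPP, at -1.30 ± 0.19 (limma adjusted p = 3.58e-05). The test of the difference between these steps is the same as that between the genotype effects, and did not pass. Spry1 had -0.45 ± 0.22 in T2F3 (limma adjusted p = 0.164) and -0.58 ± 0.18 in WT (limma adjusted p = 0.0124). The Spry1 call in WT was lost under quantile normalization (-0.25, adjusted p = 0.309), with the ribosomal covariate (-0.43, adjusted p = 0.0709) and without WT MPP 5 (-0.45, adjusted p = 0.0532). Dusp6 had -0.08 ± 0.23 in T2F3 (limma adjusted p = 0.866) and -0.45 ± 0.19 in WT, where it just missed the threshold (limma adjusted p = 0.0565). Among Etv5, Spry1 and Dusp6, it was Etv5 whose WT call held under every alternative run. The Dusp6 difference in WT passed at -0.56 to -0.45 under 8 of the alternatives tried. Spred2 had 0.01 ± 0.16 in T2F3 and -0.19 ± 0.13 in WT, and passed in neither genotype (limma adjusted p = 0.981 and 0.254). Among the genes under the filter, Dusp4 and Spry4 were lower in WT GMP than in WT MPP, at -1.39 ± 0.14 and -0.69 ± 0.14 (limma adjusted p = 3.39e-07 and 0.00065 without the filter), where that fit called 19.8% of genes lower. No other step of a gene under the filter passed. The T2F3 differences of Dusp4 and Spry4 were -0.16 ± 0.17 and -0.07 ± 0.17, and did not pass (limma adjusted p = 0.634 and 0.879).

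**Figure D4:**
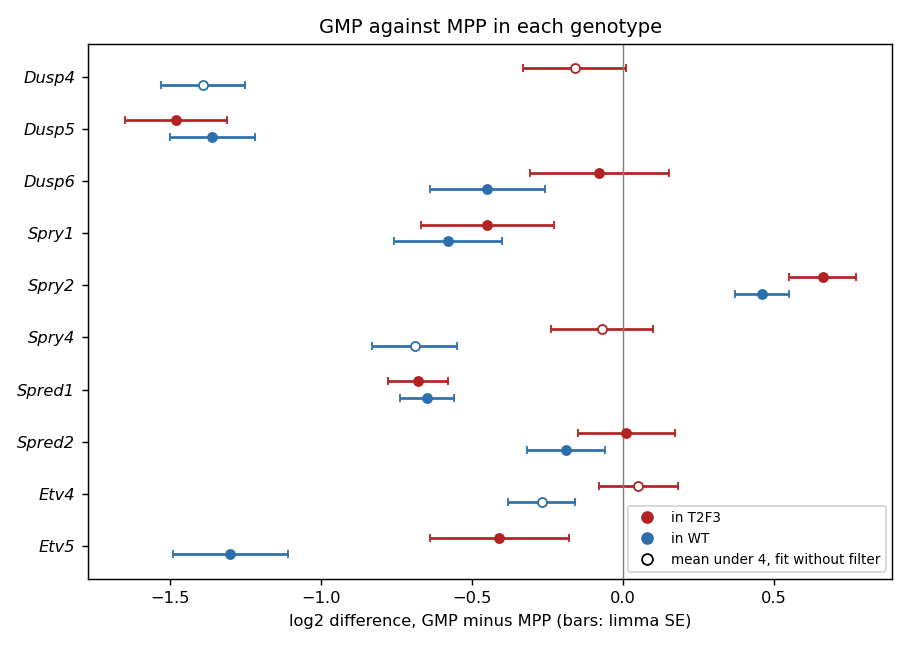
Log2 difference of GMP minus MPP for each of the 10 genes, in T2F3 and in WT, with bars of 1 limma SE; open points are the 3 genes under the filter, from the fit without it. Spry2 lies to the right of 0 in both genotypes, and the Dusp5 points, at -1.48 in T2F3 and -1.36 in WT, lie far to the left.

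Other genes of the pathway were taken from lists by role. The cascade itself, from adaptors through RAS, RAF and MEK to ERK and its downstream kinases, had 22 tested genes. In MPP 2 were higher and 5 lower in T2F3, 31.8% of the list against 40.3% of all tested genes, with a median of -0.10. In GMP 0 were higher and 1 lower, 4.55% against 15.3%, with a median of -0.04, and that single call was lost after centring. The 3 named examples passed in MPP and not in GMP. The adaptor gene Gab1 stood at -0.80 in MPP and 0.05 in GMP (limma adjusted p = 0.00191 and 0.859). Sos1, which encodes a RAS exchange factor, stood at -0.53 and -0.26 (adjusted p = 0.00508 and 0.167, limma), and Map2k1, which encodes a form of MEK, at 0.47 and 0.13 (adjusted p = 0.00254 and 0.378, limma). For none of these 3 did the difference between the populations pass (limma adjusted p of 0.065 to 0.412).

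Other brakes of RAS and ERK had 12 of 15 genes tested. In MPP 1 was higher and 6 lower, 58.3% of the list against 40.3% of all tested genes, with a median of -0.28. In GMP 1 was higher and 1 lower, 16.7% against 15.3%, with a median of -0.01. Rasa2, a RAS GTPase-activating protein gene, was lower in both, at -0.42 in MPP and -0.54 in GMP (limma adjusted p = 0.0113 and 0.00334). Dab2ip and Rasal3 belong to the same class of proteins. Dab2ip stood at -0.82 in MPP and -0.34 in GMP (adjusted p = 8.21e-05 and 0.0531, limma), and Rasal3 at -0.59 and -0.02 (adjusted p = 0.000146 and 0.881, limma). The Rasal3 effects differed between the populations, by 0.57 (limma adjusted p = 0.0296).

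The 5 tested genes among 7 other MAP kinase phosphatases held 2 that were higher and 0 that were lower in each population, 40.0% of the list against 40.3% of all tested genes in MPP and 15.3% in GMP, with medians of 0.01 in MPP and 0.18 in GMP. Dusp16 and Dusp10, whose products act mainly on the stress-activated kinases, were the 2. Dusp16 was higher by 0.37 in MPP and 0.92 in GMP (limma adjusted p = 0.0175 and 1.31e-05), and Dusp10 by 0.49 and 0.66 (limma adjusted p = 0.0199 and 0.00536). Dusp2, an immediate-early phosphatase gene, stood at -0.33 and -0.35 and did not pass (limma adjusted p = 0.0572 and 0.0769). Centring on the median brought 1 lower call to this list in MPP.

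Other ERK-responsive genes, which include the immediate-early genes, had 12 of 19 tested. In MPP 2 were higher and 3 lower, 41.7%, close to the 40.3% of all tested genes, with a median of 0.19. In GMP 2 were higher and 1 lower, 25.0% against 15.3%, with a median of 0.16. The zinc-finger factor gene Klf6 was higher by 1.26 in MPP and 0.95 in GMP (limma adjusted p = 8e-05 and 0.00125). Myc, the proliferation-linked transcription factor gene, was lower, at -0.75 and -0.51 (limma adjusted p = 0.00242 and 0.0366). Ier3, an immediate-early gene, was lower, at -0.47 in MPP (limma adjusted p = 0.0114) and stood at -0.23 in GMP (adjusted p = 0.225).

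The other ETS factor genes had 15 of 16 tested, with 0 higher and 6 lower in MPP, 40.0% of the list against 40.3% of all tested genes, and 0 higher and 1 lower in GMP, 6.67% against 15.3%. The medians were -0.25 and -0.09, and centring moved the MPP count to 9 lower. Erg and Ets1, transcription factor genes of blood progenitors and lymphoid cells, were lower in MPP, at -0.72 and -0.78 (limma adjusted p = 0.000213 and 0.000854) and stood at -0.10 and -0.24 in GMP. Elk4, a partner of serum response factor, was lower, at -0.48 in MPP (limma adjusted p = 0.00103) and stood at -0.05 in GMP.

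Upstream, receptor tyrosine kinases and their ligands had 12 of 17 genes tested, with 2 higher and 4 lower in MPP, 50.0% against 40.3% of all tested genes, and 2 higher and 2 lower in GMP, 33.3% against 15.3%. The medians were -0.40 and 0.11. Flt3, the mutated receptor, averaged 11.32 ± 0.09 in T2F3 MPP and 11.38 ± 0.10 in WT MPP (SD, n = 3 and 4), a difference of -0.06 (limma adjusted p = 0.685). In GMP it averaged 10.09 ± 0.33 in T2F3 and 8.81 ± 0.07 in WT (SD, n = 3 and 5), a difference of 1.28 (limma adjusted p = 8.23e-07). The Flt3 effects differed between the populations, by 1.34 (limma adjusted p = 0.000466). No tested feedback gene passed that test, but whether any of them differed from Flt3 in this was not tested. Fgfr1, a fibroblast growth factor receptor gene, was higher by 1.17 in MPP and 2.03 in GMP (limma adjusted p = 3.61e-05 and 1.36e-07). Tek, the angiopoietin receptor gene of stem cells and endothelium, was lower, at -2.92 and -1.05 (limma adjusted p = 1.9e-11 and 1.88e-06).

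**Figure D5:**
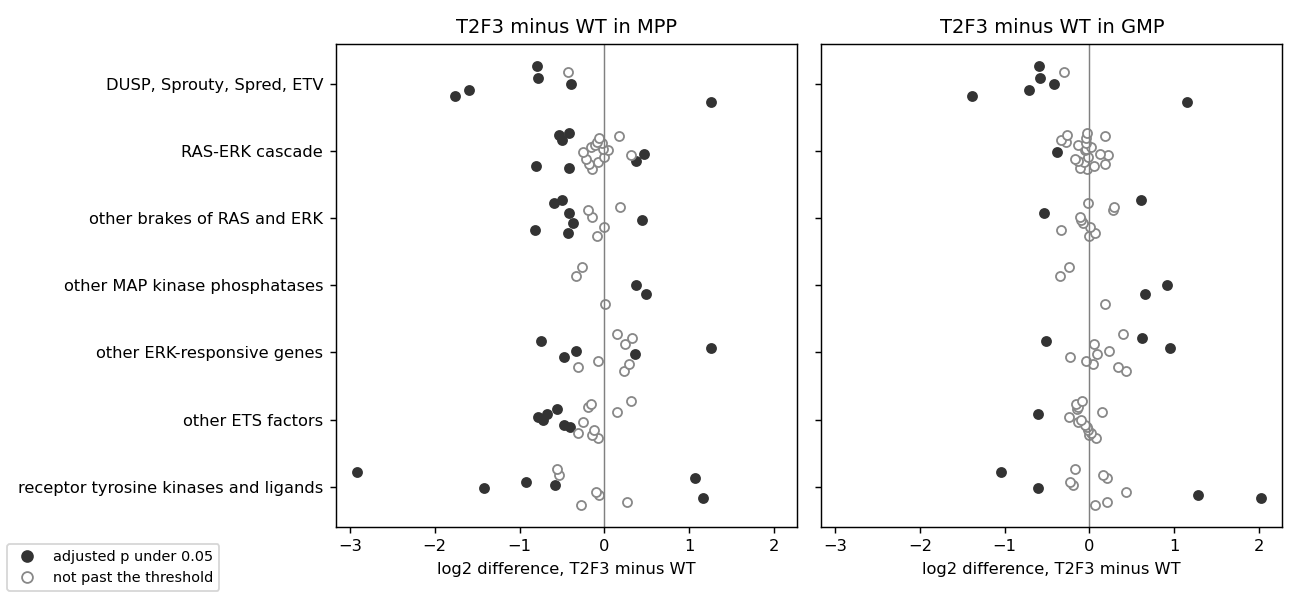
Log2 difference of T2F3 minus WT for every tested gene of the 10-gene set and of 6 other pathway lists, in MPP and in GMP; filled points passed an adjusted p of 0.05. Of the 7 tested feedback genes 6 are filled in each population, and of the 22 cascade genes 7 are filled in MPP and 1 in GMP.

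Genes with the profile closest to each member were taken by the root mean square (RMS) difference of values centred on each gene's mean, over the 15 libraries and 11342 genes. Such likeness is a description over libraries that share their groups. Closest to Dusp6 were Clstn3, Klf1 and Epha7, at 0.32, 0.34 and 0.36, where Dusp6 itself varied with an RMS of 0.83 around its mean. Klf1 encodes an erythroid transcription factor and Epha7 an ephrin receptor. Closest to Etv5 were Slc6a15, Cdc42bpa and Atp7b, at 0.25, 0.30 and 0.31. Around Dusp5 lay Itga3, Slc30a4 and Lfng, at 0.24, 0.26 and 0.29, which encode an integrin subunit, a zinc transporter and a Notch-modifying glycosyltransferase.

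Closest to Spry2 were Myb, Mybl2 and Btnl9, at 0.15, 0.16 and 0.17, of which Myb encodes a transcription factor of blood progenitors. For Spred1 the closest genes were Trp53bp1, Pogk and Fam120c, each at 0.11, and for Spred2 they were Erc1, Dpy19l3 and Def8, at 0.13, 0.14 and 0.15. Among the tested members themselves, Dusp6 was closest to Etv5, at 0.58, while Etv5 was closest to Spred1, at 0.50. Spry1 and Spred1 were closest to each other, at 0.25. Dusp5 was far from all the others, at 0.91 to 1.52.

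Markers of several blood lineages moved with the genotype as well. For all tested genes the share called was 40.3% in MPP and 15.3% in GMP. Of 10 tested erythroid markers 0 were higher and 9 lower in T2F3, in MPP and in GMP alike. Their summed level, as log2, ranged from 10.85 to 11.21 in T2F3 MPP and 11.47 to 11.77 in WT MPP, and from 11.18 to 11.31 in T2F3 GMP and 11.36 to 11.72 in WT GMP. The largest term of this sum was Tfrc, with means of 10.87 in T2F3 MPP, 10.66 in WT MPP, 11.11 in T2F3 GMP and 11.25 in WT GMP. The median difference of the tested markers was -2.49 in MPP and -1.33 in GMP. The globin gene Hbb-b1 was listed at 0 in all libraries, as were 5135 genes of the table, whose lowest value is -3.82. That 0 is therefore not read as a measured level. The globin gene Hba-a1 lay between -3.02 and -2.84. Of 10 dendritic cell markers 9 were higher and 0 lower in each population, with summed levels of 14.43 to 15.31 in T2F3 MPP and 11.54 to 12.44 in WT MPP, and of 13.94 to 14.33 in T2F3 GMP and 10.97 to 11.31 in WT GMP. Summed, these markers were higher in every T2F3 library than in any WT library of the same population. The largest terms of that sum were H2-Aa and H2-Ab1, with means of 13.72 and 13.77 in T2F3 MPP and 10.71 and 10.91 in WT MPP. Siglech went the other way in MPP, with means of 4.97 in T2F3 and 5.48 in WT. Of 8 monocyte markers 7 were higher in MPP and 6 in GMP, with summed levels of 12.40 to 13.41 in T2F3 MPP and 11.03 to 11.56 in WT MPP, and of 13.06 to 13.25 in T2F3 GMP and 11.98 to 12.29 in WT GMP.

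Megakaryocyte markers had 1 higher and 4 lower of 7 in MPP and 0 and 4 in GMP. Basophil and mast cell markers had 0 higher and 5 lower of 6 in MPP, and 0 and 6 in GMP. Mcpt8 went the other way in MPP without passing, with means of 8.71 in T2F3 and 8.10 in WT. Stem cell markers had 0 higher and 3 lower of 5 in MPP, and 0 and 1 in GMP. In that order, the shares of these 3 lists called were 71.4%, 83.3% and 60.0% in MPP, and 57.1%, 100% and 20.0% in GMP. Of all tested genes 40.3% were called in MPP and 15.3% in GMP, and the stem cell share in GMP was a single gene. B lymphoid markers had 0 higher and 4 lower of 5 in MPP, and 0 and 3 in GMP, 80.0% and 60.0% of the list. Neutrophil markers had 1 higher of 9 in MPP and 0 in GMP, 11.1% and 0.00%. T and NK markers had 1 higher and 1 lower of 4 in MPP and 1 and 0 in GMP, 50.0% and 25.0%. In sorted bulk populations, fewer cells of a type and less RNA per cell cannot be told apart, and the part of these lineage markers in the differences of the feedback genes was not tested. Of 7 genes behind the gates 6 were tested. Between genotypes 3 were higher and 1 lower in MPP, and 2 higher and 0 lower in GMP, 66.7% and 33.3% of those tested. Kit, also a receptor upstream of ERK, was lower in T2F3 MPP, at -0.92 (limma adjusted p = 0.000163), and stood at -0.23 in GMP (adjusted p = 0.282). Cd48 was higher by 1.53 in MPP and 0.69 in GMP, and Ly6a, which encodes Sca-1, by 0.63 and 0.49 (limma adjusted p of 6.7e-06 to 0.01). The surface genes that define the gates thus also differed between the genotypes, and their part in the differences of the feedback genes was not tested. Fcgr2b, a CD32 gene, was higher by 0.78 in MPP (limma adjusted p = 7.35e-05) and stood at 0.20 in GMP, and Cd34 and Fcgr3 did not pass in either. Slamf1 (CD150) was low in every library, at 1.89 to 3.10. Fcgr3 (CD16) ranged from 10.27 to 11.58 in GMP and from 8.71 to 9.15 in MPP.

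Ribosomal protein genes set a few libraries apart. Taking 74 such genes, each library was set against the rest of its group, and the median deviation was 1.10 in WT GMP 1, 0.86 in T2F3 GMP 2 and -0.64 in T2F3 GMP 3. Without WT GMP 1 and T2F3 GMP 2, 6 of 7 tested members passed in MPP, 1 higher and 5 lower, and 5 of 7 in GMP, 1 higher and 4 lower. Of all tested genes, 55.2% passed in MPP and 17.9% in GMP in that fit. The gene lost there was Etv5, at -0.60 (limma adjusted p = 0.104).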

How the data were processed

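Per the labels, the kit used for these RNA-seq libraries keeps the strand of the mRNA. What the authors deposited is 1 table of regularized log2 values for 24424 genes by Entrez ID in 15 libraries. DESeq2, STAR, HOMER, Bowtie and mm9 are named in the submitters' processing notes, without versions or settings. The table holds no counts, so depth is unknown, and regularization understates differences of low genes. Symbols were matched with the RefSeq gene table of GRCm38.p6 (24345 IDs). That table's build is not the submitters', so promoter windows carry its own coordinates and none was joined to the files by position. The other 41 of 56 samples were not analysed here.

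The 12133 genes averaging at least 4 were fitted in limma 3.58.1 (R 4.3.3) with a mean per group over all 15 libraries, and eBayes with trend and robust steps. There were 5 contrasts, tested two-sided, with Benjamini-Hochberg adjustment over all tested genes and a threshold of 0.05. Differences are in log2 units with limma's SE. Genes outside the set were named by rule: the 3 tested genes of each pathway list with the smallest p for genotype, Flt3, and the 3 nearest profiles of each member called in both populations, with predicted genes, RIKEN clones and pseudogenes left out. The method was tested on simulated data with independent noise for each gene. Such data hold no shifts shared by many genes of a library, so that test does not cover them. The members and lists were chosen with earlier results of these data known. The labels do not say whether equal replicate numbers mark the same animal, so the main fit did not pair the libraries. Alternatives were other filters, scalings, a pseudocount, variance models, weights, blocks, a ribosomal covariate and leaving out libraries.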

Additional observations from a re-analysis of the deposited data

Results flagged for a closer look

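Spred2 in WT MPP 1 stood apart from the other WT MPP libraries, at 8.42 against 8.00 to 8.01. Its gap to the nearest library was 0.972 of the group's range, above the 95% critical value of Dixon's test for 4 samples. Of the groups of 4 or more libraries 20 were examined, and chance flags about 1 in 20. Without WT MPP 1 the Spred2 difference of T2F3 minus WT in MPP was -0.68 (limma adjusted p = 0.00418), against -0.78 with it.

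The genotype effect on Dusp4 differed between GMP and MPP by 1.23 (limma adjusted p = 0.0051 in the fit without the filter). Its T2F3 MPP libraries all lay under the WT MPP libraries, and in GMP the genotypes overlapped.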

How the results depend on the processing

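No member difference that passed the threshold changed sign. Of 403 single-setting values 384 kept their sign and their side of the threshold, 5 lost the threshold, 6 gained it and 8 changed sign without passing it, and of 315 values with 1 library left out 294, 7, 2 and 12. For the difference of effects, Dusp6 was at -0.01 with array weights, Spry1 at -0.00 with the ribosomal covariate, and Spred1 at 0.03 centred, 0.01 under quantile normalization and 0.03 without WT GMP 1 and T2F3 GMP 2. With 1 library left out, these differences ranged from -0.30 to 0.07 for Dusp5, -0.03 to 0.27 for Spry1 and -0.11 to 0.07 for Spred1. For GMP minus MPP, Spred2 was at 0.01 in WT with the covariate and -0.00 in T2F3 centred, and Dusp6 at 0.07 in T2F3 under quantile normalization. With 1 library left out, the T2F3 values ranged from -0.35 to 0.08 for Dusp6 and -0.08 to 0.11 for Spred2. With a minimum mean of 6, 3 members passed from MPP to GMP in WT, against 5, since 5 members were tested there. The count of called members in GMP ranged from 4 to 6 with 1 library left out. Same-numbered libraries of 1 genotype correlated at 0.05 to 0.46, with WT 1 and T2F3 1 under 0.1, and 4 of 7 MPP libraries were most like the GMP library of their own number. Within a population, same-numbered libraries of the other genotype correlated at -0.33 to 0.52, the highest being T2F3 GMP 3 with WT GMP 3. No chance level was set for these values, and whether equal numbers mark a shared animal or batch was not tested. With the number as a replicate block, 6 members passed in MPP and 5 in GMP (Etv5 -0.60, limma adjusted p = 0.0637). Over all genes the calls moved by more than 1.5 times with array weights (7795 in MPP against 4889, 4103 in GMP against 1855, 4389 in T2F3 from MPP to GMP against 2690), the block (2732 in MPP), own groups only (1180 in GMP) and the ribosomal covariate (2819 in GMP, 4247 in T2F3). Leaving out T2F3 MPP 2 or 3 gave 2859 and 2892 in MPP, and leaving out T2F3 GMP 2 or WT GMP 1 gave 1174 and 3759 in GMP. The calls of the difference of effects ranged from 79 to 1494 against 274, and 74.5% of them were higher after centring, against 60.9%. The causes were not tested. The values hold no counts, so counting error is unknown.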

Other observations

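Spred3, another Spred gene, which is not among the 10 members and was chosen after its values were seen, went opposite ways in the populations. It read 7.20, 6.72 and 6.72 in T2F3 MPP, against 7.54, 7.26, 7.29 and 7.41 in WT MPP, and was lower in T2F3, at -0.50 ± 0.16 (limma adjusted p = 0.0246). In T2F3 GMP it read 5.98, 6.49 and 6.44, against 5.86, 5.49, 5.96, 5.65 and 5.49 in WT GMP, and was higher in T2F3 by 0.61 ± 0.16 (limma adjusted p = 0.0132). Neither pair of groups overlapped, but the nearest libraries were close. They were T2F3 MPP 1 at 7.20 and WT MPP 3 at 7.26, and T2F3 GMP 1 at 5.98 and WT GMP 3 at 5.96. Of all tested genes, 54.1% lay apart in MPP and 17.0% in GMP. The effects differed by 1.11 ± 0.22 (limma adjusted p = 0.0184). Leaving out T2F3 MPP 2, T2F3 MPP 3 or T2F3 GMP 3 gave 1.03, 1.03 and 1.04 with adjusted p of 0.0556, 0.075 and 0.0555.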
